A study of Mus musculus with 28 samples.

Results

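The genes described here are 9 signalling genes of the Nodal and BMP pathways, namely *Nodal*, its co-receptor *Tdgf1*, the inhibitors *Lefty1* and *Lefty2*, the inhibitory SMAD gene *Smad7*, *Bmp4*, and the BMP target genes *Id1*, *Id2* and *Id3*. They were chosen by name from the 37991 genes counted in the RNA-seq libraries, and all 9 passed the filter of 16 reads summed over 16 libraries. The choice was made with earlier results of these data known. The shares of all genes printed beside numbers of calls are therefore a description and no test of the set. The libraries came from mouse embryonic stem (ES) cells of 3 genotypes, all labelled as the J1 line of strain 129S4/SvJae: wild type (WT), knockout of *Dnmt1*, *Dnmt3a* and *Dnmt3b* (DNMT TKO), and knockout of *Tet1*, *Tet2* and *Tet3* (TET TKO). Each genotype carried either an empty hairpin vector (shEmpty) or a hairpin against *Kap1* (shKap1), with 3 libraries per hairpin in WT and DNMT TKO and 2 in TET TKO. All cells were kept naive with LIF, a MEK inhibitor at 1 µM and a GSK3 inhibitor at 3 µM, were selected with puromycin at 4 µg/mL, and were collected on day 5. Each mutant genotype was 1 line derived in another laboratory, so genotype and line cannot be told apart, and a single hairpin was compared with the empty vector.

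Nodal is a secreted ligand of the TGF-beta family. It binds activin receptors together with the membrane-anchored co-receptor Cripto, encoded by *Tdgf1*, and the receptors phosphorylate SMAD proteins that enter the nucleus. Among the genes it switches on are its own extracellular inhibitors, the Lefty proteins, so that the pathway limits itself, and *Smad7* encodes an intracellular inhibitor of the same receptors. BMP4 is a ligand of the BMP branch of the family, which signals through a different set of SMAD proteins and induces the *Id* genes, whose products bind bHLH transcription factors and keep them off DNA. In ES cells the BMP and Id branch is known for helping LIF to hold back differentiation, whereas Nodal is known for its part in forming mesendoderm.

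Depth ranged from 18108431 to 29373696 gene reads per library. *Trim28*, the gene encoding KAP1, was left at 9.42% of its shEmpty level in WT, 22.9% in DNMT TKO and 9.03% in TET TKO. The naive pluripotency markers (7 of 8 tested) summed to between 3636 and 3888 CPM (read counts scaled to library size) in shEmpty and between 2200 and 2817 CPM in shKap1 libraries. Markers of the 2-cell state (4 of 6 tested) summed to between 4.77 and 20.1 CPM in shEmpty, and to between 156 and 175 CPM in WT, 50.4 and 110 CPM in DNMT TKO and 471 and 486 CPM in TET TKO after knockdown. Over all groups the other lists ran from 7.36 to 18.5 CPM for primitive endoderm (6 of 6 tested), 7.43 to 67.0 CPM for trophoblast (5 of 6) and 3.04 to 11.4 CPM for fibroblasts (4 of 5). The formative list (4 of 5, with *Dnmt3a* and *Dnmt3b* in it) ran from 33.5 to 313 CPM. Within these ranges groups differed. Summed primitive endoderm markers in DNMT TKO were at 7.36 to 9.87 CPM in shEmpty and 12.2 to 15.85 CPM in shKap1. In TET TKO these sums were at 14.4 to 16.4 CPM and 17.4 to 17.7 CPM. In WT the sums overlapped, but single markers moved in opposite directions without overlap. *Gata4*, *Sox17* and *Pdgfra* were higher in WT shKap1, *Sox7* and *Dab2* were lower, and *Gata6* overlapped. Summed trophoblast markers in shEmpty were at 37.5 to 53.3 CPM in WT, 18.2 to 25.7 in DNMT TKO and 62.6 to 67.0 in TET TKO. In shKap1 the sums were at 58.7 to 60.5 CPM in WT and 53.5 to 53.7 in TET TKO, and overlapped shEmpty in DNMT TKO. *Krt8* made up most of these sums, at 35.0 to 49.9 CPM in WT shEmpty. *Cdx2* had another order in shEmpty, at 1.17 to 1.67 CPM in WT, 5.47 to 6.50 in DNMT TKO and 0.451 to 0.599 in TET TKO. In DNMT TKO shKap1 *Cdx2* was at 0.927 to 1.15 CPM, below shEmpty. No list summed to 0 in any library. Within the formative list *Fgf5* was at 0.666 CPM or less in every library. *Otx2* was at 0.498 to 1.06 CPM in WT shEmpty, 5.74 to 7.72 in DNMT TKO shEmpty and 2.96 to 3.19 in TET TKO shEmpty. *Dnmt3a* ran from 50.8 to 71.9 CPM in WT shEmpty and from 124 to 172 CPM in WT shKap1. *Dnmt3b* ran from 136 to 192 CPM and from 92.8 to 137 CPM in those 2 groups. The part of these markers in the results below was not tested, and in such bulk samples fewer cells of a type and less RNA per cell cannot be told apart.

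The replicate 1 libraries of WT and DNMT TKO stood apart from replicates 2 and 3 in all 4 groups. Their summed 2-cell markers were at 0.325 to 0.908 times the mean of replicates 2 and 3, and their trophoblast markers at 0.732 to 2.79 times. The CPM of *Lefty1* in replicate 1 was 1.47 to 4.76 times the mean of the other replicates, that of *Lefty2* 1.35 to 4.11 times, that of *Id2* 1.20 to 2.52 times and that of *Id3* 1.63 to 5.53 times. *Smad7* moved little, with ratios of 1.01 to 1.10. *Bmp4* was higher in replicate 1 in 3 groups, at 1.53 to 1.87 times, and lower in WT shKap1, at 0.479 times. For the 9 genes and *Inhbb*, values without these replicate 1 libraries are given below wherever they change a call. Among genes of at least 1 CPM, between 9.07% and 12.6% differed by 1.5-fold or more in replicate 1 of these groups. The main fit estimated the spread of each gene over all 6 groups together. The SE of a TET TKO comparison therefore also reflects the WT and DNMT TKO libraries. Between the 2 TET TKO shEmpty libraries the overdispersion of counts was 51.1, beside 12.3 to 17.0 for pairs with a replicate 1 library of WT or DNMT TKO. Their r of log2 CPM was 0.993, beside 0.988 to 0.990.

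**Figure D1:**
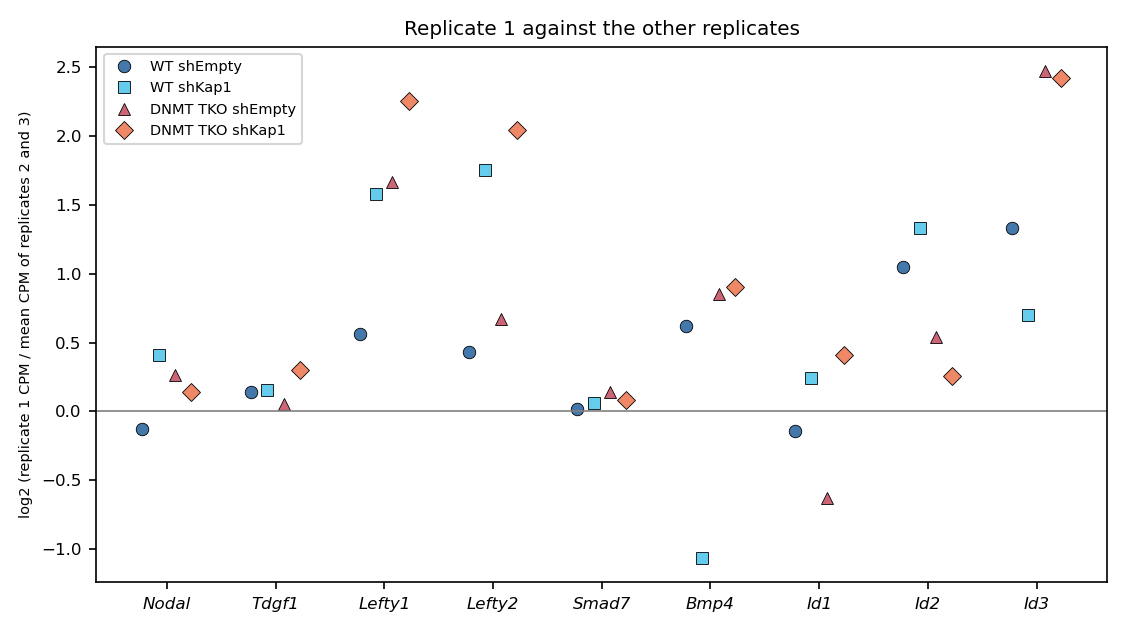
Each symbol is the CPM of a gene in replicate 1 divided by its mean CPM in replicates 2 and 3 of the same group, on a log2 axis, for the 4 groups with 3 libraries. *Lefty1*, *Lefty2*, *Id2* and *Id3* lie above 0 in all 4 groups, while *Smad7* lies near 0.

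*Tdgf1* was the most abundant of the 9 transcripts in WT shEmpty. Levels were compared between genes per length, as CPM divided by exon length in kilobases (RPKM), in WT shEmpty (n = 3). *Tdgf1* reached 172 ± 10.3 RPKM (SD) and *Nodal* 48.9 ± 2.49 RPKM. *Smad7* followed with 15.2 ± 0.632 RPKM, *Id3* with 12.5 ± 7.30 RPKM and *Lefty2* with 12.0 ± 2.60 RPKM. The ranges of *Smad7* and *Id3*, and of *Id3* and *Lefty2*, overlapped, so their order is not resolved. *Id1* stood at 6.61 ± 0.424 RPKM, clear of its neighbours. *Bmp4* at 4.18 ± 1.12 RPKM, *Id2* at 3.50 ± 1.59 RPKM and *Lefty1* at 2.98 ± 0.772 RPKM overlapped each with the next.

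**Figure D2:**
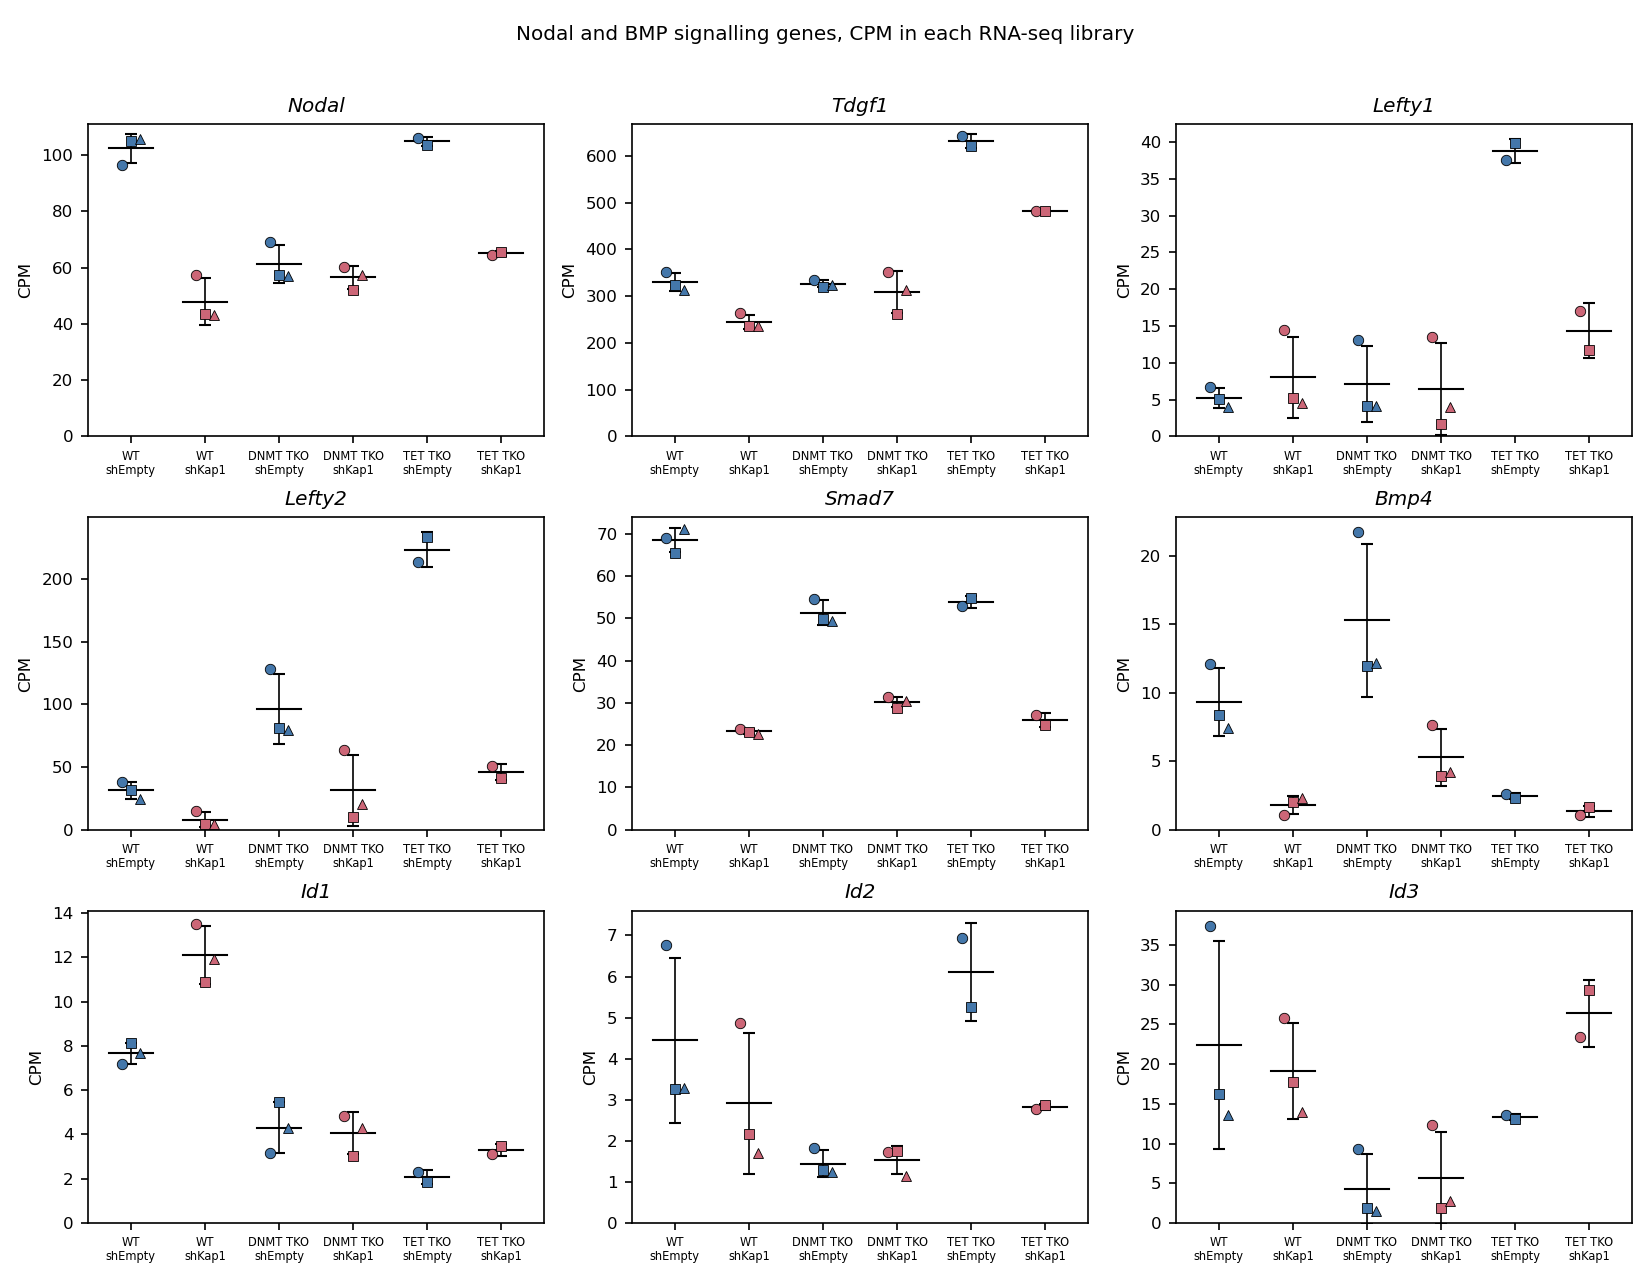
CPM of each of the 9 genes in the 16 libraries, with shEmpty in blue, shKap1 in red, replicates 1, 2 and 3 as circle, square and triangle, and the group mean and SD in black. *Smad7* is lower in every shKap1 library than in every shEmpty library, and *Lefty1* and *Lefty2* are highest in TET TKO shEmpty.

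All 9 genes carried H3K4me3, the mark of active or poised starts, in at least 1 of 2 ChIP-seq replicates, and 4 of them, *Lefty1*, *Bmp4*, *Id1* and *Id2*, also carried H3K27me3, the Polycomb mark, in both replicates. H3K4me3 peaks within 1 kb of the start were found in both replicates at 8 of 9 genes, against 69.3% of the 20321 genes tested, and *Lefty1* had them in replicate 2 alone. H3K27me3 peaks were found in both replicates at 4 genes, *Lefty1*, *Bmp4*, *Id1* and *Id2*, against 16.1% of genes, and in 1 replicate at *Lefty2* and *Id3*. *Nodal*, *Tdgf1* and *Smad7* had none in either replicate. Both marks in both replicates were present at 3 of 9 genes, *Bmp4*, *Id1* and *Id2*, against 13.3% of genes. When only peaks above the median score of their list were kept, 0 of 9 had both marks.

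The H3K4me3 peaks of *Nodal*, *Tdgf1* and *Smad7* each scored 3100 in both replicates (MACS score), at the 99.4 and 99.1 percentile of the 2 lists, and spanned 4979 to 10379 bases. The percentile is the share of peaks with the same score or less, so peaks tied at 3100 count in it. In replicate 2 the *Id3* peak also scored 3100, and a score of 2916 was at the 85.3 percentile. The H3K4me3 peak over *Bmp4* scored 1327 and 2916 in the 2 replicates and spanned 5825 and 6279 bases. Its H3K27me3 peak had SICER scores of 86 and 83, at the 35.8 and 22 percentile of their lists, and was 1999 and 1799 bases long. At *Lefty1* the H3K27me3 peak scored 147 and 225, at the 76.1 and 84.9 percentile, and covered 3399 and 4599 bases. *Lefty2*, the neighbour of *Lefty1* on the same strand, had an H3K4me3 peak in both replicates, with MACS scores of 747 and 983.

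Of the 3 genes with both marks, RefSeq promoters were matched for *Bmp4* and *Id2*, shown here because peaks of active and Polycomb marks both lay within 1 kb of their starts. Each sequence is the 250 bases before the start on the minus strand of GRCm38.p6, at chr14:46390670-46390919 for *Bmp4* and chr12:25096093-25096342 for *Id2*, in lower case with motif matches in capitals.
Bmp4: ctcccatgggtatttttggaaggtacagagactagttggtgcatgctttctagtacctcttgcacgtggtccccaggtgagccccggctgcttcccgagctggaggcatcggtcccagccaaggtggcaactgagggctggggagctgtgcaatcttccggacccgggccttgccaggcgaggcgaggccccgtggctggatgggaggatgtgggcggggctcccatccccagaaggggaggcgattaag
Id2: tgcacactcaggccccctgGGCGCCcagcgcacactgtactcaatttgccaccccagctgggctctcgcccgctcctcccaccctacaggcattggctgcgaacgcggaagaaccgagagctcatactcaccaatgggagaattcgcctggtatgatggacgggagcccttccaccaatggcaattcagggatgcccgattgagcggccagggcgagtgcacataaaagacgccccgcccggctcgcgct
Each matched the mm9 genome of the files at 1 place, directly before the annotated start. Both lay whole within the H3K4me3 peaks of both replicates and outside the H3K27me3 peaks, which lay over the genes themselves. The motifs searched on both strands were CAGAC, the SMAD box, GGCGCC, a GC-rich SMAD motif and its own reverse complement, and GTGGATT, the motif of FOXH1, a SMAD partner, none of which overlap. The *Id2* promoter held 1 GGCGCC, a motif found in 9.59% of 32851 RefSeq promoters of this length. CAGAC, found in 42.2% of them, was present in the promoters of *Id3* with 2 matches and *Tdgf1* with 1. The promoters of *Nodal* and *Bmp4* held none of these motifs in this window, and GTGGATT, found in 2.1% of promoters, was in none of the 5 matched here.

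In WT cells 4 of the 9 genes were called lower on knockdown, *Nodal*, *Lefty2*, *Smad7* and *Bmp4*, and none was called higher. In DNMT TKO cells 1 was called lower, *Bmp4*, and in TET TKO cells 2 were called lower, *Lefty2* and *Smad7*. A gene was called when edgeR's quasi-likelihood test with Benjamini-Hochberg adjustment gave an adjusted p below 0.05 and the change was at least 2-fold. By that rule 17.4% of all genes were called in WT, 12.5% in DNMT TKO and 12.5% in TET TKO. These split into 10.8% higher and 6.54% lower in WT, 10.1% and 2.41% in DNMT TKO, and 8.05% and 4.46% in TET TKO. On the adjusted p alone 6, 2 and 4 of the 9 genes passed, against 45.7%, 35.3% and 30.4% of all genes. In WT 5 of these were lower and 1, *Id1*, was higher, and all those in DNMT TKO and TET TKO were lower. The median change of the 9 genes on the log2 scale was -0.58 in WT, -0.11 in DNMT TKO and -0.88 in TET TKO, beside -0.0098, 0.016 and -0.011 over all genes. The libraries of the 2 hairpins did not overlap for 6, 3 and 9 of the genes, against 54.4%, 44.7% and 69.9% of all genes.

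*Nodal*, the ligand (ENSMUSG00000037171, chromosome 10, 60880720 to 60888086 in mm9), was measured at 96.4, 105 and 106 CPM in WT shEmpty and at 57.5, 43.4 and 43.0 CPM in WT shKap1. The groups did not overlap, and *Nodal* fell by 1.10 ± 0.0989 on the log2 scale (SE), or 2.14-fold, with an adjusted p of 9.87e-08 by edgeR's quasi-likelihood test. In DNMT TKO it stood at 69.1, 57.6 and 57.2 CPM in shEmpty and 60.3, 52.2 and 57.4 CPM in shKap1. These overlapped, with a log2 difference of -0.11 ± 0.0982 and an adjusted p of 0.418 by the edgeR test. In TET TKO it went from 106 and 104 CPM to 64.5 and 65.7 CPM, a log2 difference of -0.69 ± 0.119 with an edgeR adjusted p of 0.00026, which passed the test but not the 2-fold threshold. The shEmpty level in DNMT TKO was below that of the other lines and close to the shKap1 level of TET TKO.

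*Tdgf1*, the co-receptor gene (ENSMUSG00000032494, chromosome 9, 110842114 to 110848662), was also lower after knockdown in WT and TET TKO, by under 2-fold. In WT its CPM was 352, 324 and 314 in shEmpty and 263, 236 and 237 in shKap1. The log2 difference of -0.43 ± 0.0800 passed the edgeR test with an adjusted p of 0.000274 but was under 2-fold. In DNMT TKO the groups overlapped, at 320 to 334 CPM and 261 to 353 CPM, with an edgeR adjusted p of 0.481 that became 0.0167 without the replicate 1 libraries of WT and DNMT TKO, at -0.19. In TET TKO the level went from 643 and 621 CPM to 483 and 482 CPM, a log2 difference of -0.39 ± 0.0971 with an edgeR adjusted p of 0.00518.

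*Lefty2* (ENSMUSG00000066652, chromosome 1, 182823239 to 182829234), an antagonist of Nodal, had lower mean levels after knockdown in every genotype, with a wide spread between replicates in WT and DNMT TKO. WT shEmpty held 37.8, 31.8 and 24.3 CPM and WT shKap1 15.1, 4.63 and 4.32 CPM, with no overlap. *Lefty2* fell by 1.97 ± 0.671 on the log2 scale in WT, or 3.93-fold, with an adjusted p of 0.0337 by the edgeR test. The call was lost without any 1 of 4 libraries, with an edgeR adjusted p of 0.0792 without WT shEmpty replicate 1, 0.0683 without WT shEmpty replicate 2, 0.116 without WT shKap1 replicate 2 and 0.109 without WT shKap1 replicate 3, at falls of 3.17-fold or more. Its size also rested on replicate 1, with a log2 change of -2.77, or 6.83-fold, without WT shKap1 replicate 1 and of -2.62 ± 0.403, or 6.15-fold, without the replicate 1 libraries of WT and DNMT TKO, where the edgeR adjusted p was 0.00156. In DNMT TKO its CPM was 128, 81.0 and 79.8 in shEmpty and 63.5, 10.2 and 20.7 in shKap1. The log2 difference of -1.62 ± 0.577 just missed the threshold with an edgeR adjusted p of 0.0512. It passed with the replicate number as a block, at -1.82 ± 0.387 and an edgeR adjusted p of 0.0073, and without the replicate 1 libraries of WT and DNMT TKO, at -2.36 ± 0.275 and an edgeR adjusted p of 0.000496. In TET TKO it went from 214 and 233 CPM to 50.6 and 41.5 CPM. It fell there by 2.28 ± 0.703 on the log2 scale, or 4.85-fold, with an edgeR adjusted p of 0.0319. With any 1 of the 4 TET TKO libraries left out the log2 change was -2.42 to -2.13 and the adjusted p 0.0762 to 0.164, but such a fit leaves 1 arm with a single library, which is assumed to vary like the other groups.

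*Lefty1* (ENSMUSG00000038793, chromosome 1, 182865153 to 182868531), the neighbouring paralog, did not pass the test in any genotype. Reads that mapped to more than 1 place were discarded by the authors, so sequence the 2 *Lefty* genes share counts for neither. WT shEmpty held 6.66, 5.09 and 3.96 CPM and WT shKap1 14.4, 5.2 and 4.48 CPM, so that only replicate 1 of shKap1 was high, and the edgeR adjusted p was 0.524. DNMT TKO held 13.1, 4.11 and 4.12 CPM in shEmpty and 13.5, 1.74 and 3.93 CPM in shKap1, with an edgeR adjusted p of 0.922. TET TKO went from 37.6 and 39.9 CPM to 17.0 and 11.8 CPM, a log2 difference of -1.43 ± 0.790 with an edgeR adjusted p of 0.214. That difference passed the edgeR test with the replicate block, with an adjusted p of 0.0138, and without the replicate 1 libraries of WT and DNMT TKO, with an adjusted p of 0.00128.

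*Smad7* (ENSMUSG00000025880, chromosome 18, 75527183 to 75555589), an intracellular inhibitor of the receptors, had little spread between replicates. WT shEmpty held 69.1, 65.4 and 71.1 CPM and WT shKap1 23.9, 23.1 and 22.7 CPM. It fell in WT by 1.56 ± 0.0665 on the log2 scale, or 2.95-fold, with an edgeR adjusted p of 6.04e-12. DNMT TKO went from 54.6, 49.7 and 49.3 CPM to 31.4, 28.8 and 30.4 CPM without overlap, a log2 difference of -0.76 ± 0.0650 that passed the edgeR test with an adjusted p of 8.62e-08 but was under 2-fold. In TET TKO, with 52.8 and 54.7 CPM against 27.1 and 24.8 CPM, it fell by 1.05 ± 0.0804 with an edgeR adjusted p of 2.72e-08. The TET TKO value lay at the 2-fold edge and dropped under it without TET TKO shKap1 replicate 2, at -0.98, and with library totals as the only scaling, at -0.97.

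*Bmp4* (ENSMUSG00000021835, chromosome 14, 47003195 to 47010344), the BMP ligand, fell in WT and in DNMT TKO. Its CPM went from 12.1, 8.40 and 7.40 to 1.05, 2.04 and 2.35, so that replicate 1 was highest with shEmpty and lowest with shKap1. It fell by 2.34 ± 0.353 on the log2 scale, or 5.06-fold, with an edgeR adjusted p of 6.77e-05. Without the replicate 1 libraries of WT and DNMT TKO the log2 change was -1.84 ± 0.165 with an edgeR adjusted p of 1.99e-11. In DNMT TKO it went from 21.7, 11.9 and 12.2 CPM to 7.64, 3.95 and 4.23 CPM, and fell by 1.53 ± 0.306 with an edgeR adjusted p of 0.00118. In TET TKO the level was low under both hairpins, at 2.61 and 2.33 CPM with shEmpty and 1.06 and 1.64 CPM with shKap1, and the log2 difference of -0.88 ± 0.490 had an edgeR adjusted p of 0.208. Without the replicate 1 libraries of WT and DNMT TKO the TET TKO difference was -0.87 ± 0.223 with an edgeR adjusted p of 0.00165, still under 2-fold.

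None of the *Id* genes, whose products block bHLH factors, was called in any genotype in the fit over all groups. *Id1* (ENSMUSG00000042745, chromosome 2, 152561987 to 152563146) was higher in WT shKap1, at 13.5, 10.9 and 11.9 CPM, than in WT shEmpty, at 7.16, 8.15 and 7.68 CPM. That log2 difference of 0.66 ± 0.180 passed the edgeR test with an adjusted p of 0.00589 and was under 2-fold, opposite in direction to the change of *Bmp4*. *Id1* in TET TKO went from 2.29 and 1.84 CPM to 3.10 and 3.49 CPM, a log2 difference of 0.67 ± 0.264 with an edgeR adjusted p of 0.0654, and its DNMT TKO groups overlapped, from 3.15 to 5.45 CPM and from 3.01 to 4.85 CPM. *Id2* (ENSMUSG00000020644, chromosome 12, 25778666 to 25780957) stood at 6.77, 3.27 and 3.29 CPM in WT shEmpty and 4.88, 2.17 and 1.71 CPM in WT shKap1, where replicate 1 of shKap1 overlapped shEmpty, with an edgeR adjusted p of 0.19 that became 0.0142 with the replicate block, at -0.62. *Id2* in TET TKO went from 6.94 and 5.26 CPM to 2.78 and 2.87 CPM, a log2 difference of -1.11 ± 0.415 that missed the threshold with an edgeR adjusted p of 0.0544. It passed with the replicate block, with an edgeR adjusted p of 0.00106, and without the replicate 1 libraries of WT and DNMT TKO, with 4.87e-06. *Id3* (ENSMUSG00000007872, chromosome 4, 135699412 to 135701670) ran from 13.6 to 37.4 CPM in WT shEmpty and from 13.9 to 25.8 CPM in WT shKap1, with an edgeR adjusted p of 0.847. In TET TKO it was at 13.6 and 13.1 CPM with shEmpty and 23.4 and 29.4 CPM with shKap1, a log2 difference of 0.98 ± 0.859 with an edgeR adjusted p of 0.451, where the SE draws on all 6 groups. Without the replicate 1 libraries of WT and DNMT TKO it was 0.99 ± 0.141 with an edgeR adjusted p of 3.51e-05, just under 2-fold, and in a fit of only the TET TKO groups it was 1.01 ± 0.102 and called, with an edgeR adjusted p of 1.85e-06. Without those replicate 1 libraries 3 further knockdown differences of *Id* genes had an edgeR adjusted p below 0.05 at under 2-fold, namely *Id2* in WT at -0.73 (0.00388), *Id1* in DNMT TKO at -0.42 (0.0386) and *Id1* in TET TKO at 0.68 (0.00619).

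**Figure D3:**
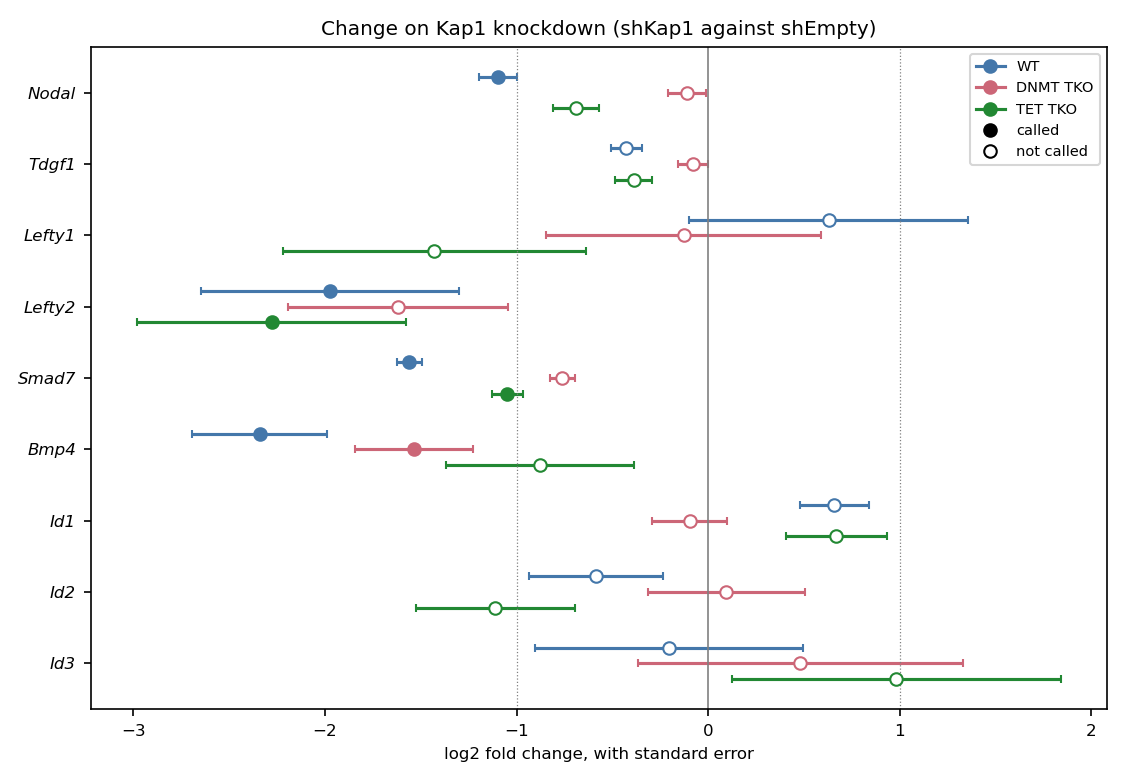
Log2 fold change of shKap1 against shEmpty for each gene in WT (blue), DNMT TKO (red) and TET TKO (green), with the standard error as a bar, 2-fold as dotted lines, and filled symbols for called genes. *Smad7*, *Lefty2* and *Bmp4* lie below 0 in each genotype, and *Lefty1* and *Id3* have wide bars in each genotype.

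The knockdown effect on *Nodal*, *Smad7* and *Tdgf1* differed between DNMT TKO and WT by the test of the difference, and that on *Smad7* also between TET TKO and WT, each by less than 2-fold. So 0 of 9 genes were called for either difference, against 7.14% of all genes for DNMT TKO (4.66% higher, 2.48% lower) and 4.21% for TET TKO (2.08% and 2.13%). On the adjusted p alone 3 and 1 of 9 passed, against 18.4% and 9.69% of all genes. In edgeR 4 and 3 of the 9 had an unadjusted p below 0.05, against 30% and 23.5% of all genes. DESeq2 called 0 and 1, against 7.88% and 5.99% of the genes it gave an adjusted p, and limma-voom called 1 and 0, against 7.76% and 4.34% of all genes. For *Nodal* the DNMT TKO effect was less negative by 0.98 ± 0.139 on the log2 scale, with an edgeR adjusted p of 8.69e-05. This difference passed 2-fold and was called with the replicate block, at 1.00 ± 0.118, and without the replicate 1 libraries, at 1.18 ± 0.0719. For *Smad7* the DNMT TKO effect was less negative by 0.80 ± 0.0923 (edgeR adjusted p of 9.35e-06) and the TET TKO effect by 0.51 ± 0.104 (edgeR adjusted p of 0.00402). For *Tdgf1* the DNMT TKO difference was 0.35 ± 0.113 with an edgeR adjusted p of 0.0394, which became 0.0648 without the replicate 1 libraries, at 0.22 ± 0.0855. It also missed the threshold with DESeq2 size factors (adjusted p of 0.0664), the DESeq2 Wald test (0.0565), no filter (0.0516) and only the groups compared (0.108), and without any 1 of 9 of the 12 libraries, so that its adjusted p ran from 0.00361 to 0.14 with 1 library left out. For *Id1* it was -0.75 ± 0.267 with an edgeR adjusted p of 0.0583, which became 0.0476 with the replicate block and 0.000573 without the replicate 1 libraries, still under 2-fold. Without those libraries the difference of *Id2* for DNMT TKO, at 0.88, and of *Id3* for TET TKO, at 0.87, also passed the edgeR test, with adjusted p values of 0.0458 and 0.00566 in place of 0.443 and 0.584. For *Nodal* in TET TKO the difference of 0.41 ± 0.154 had an edgeR adjusted p of 0.11, which became 0.0387 with the block and 6.19e-08 without the replicate 1 libraries, at 0.42 and 0.59. *Trim28* was left at 22.9% in DNMT TKO, more than the 9.42% of WT, and at 9.03% in TET TKO, no more than in WT, and its part in these differences was not tested. For *Bmp4* the differences were 0.81 ± 0.468 for DNMT TKO and 1.46 ± 0.620 for TET TKO, with edgeR adjusted p values of 0.277 and 0.164. The DESeq2 Wald test called the TET TKO difference, at 1.48 with an adjusted p of 0.0481. Without the replicate 1 libraries of WT and DNMT TKO it was 0.97 ± 0.293 and passed the edgeR test with an adjusted p of 0.0128, under 2-fold. For *Lefty1* the TET TKO effect was more negative by 2.06 on the log2 scale, at -2.06 ± 1.07 with an edgeR adjusted p of 0.286. It was called with the replicate block, at -1.88 ± 0.513 and an edgeR adjusted p of 0.0427, and without the replicate 1 libraries, at -1.53 ± 0.414 and an edgeR adjusted p of 0.0342. These comparisons share the WT libraries, so they are not independent of each other.

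TET TKO cells held more *Lefty1* and *Lefty2* and less *Bmp4* and *Id1* than WT cells, and DNMT TKO cells held more *Lefty2* and less *Id2* and *Id3*. For TET TKO 4 of 9 genes were called, 2 higher and 2 lower, against 10.5% of all genes (5.66% higher, 4.8% lower). For DNMT TKO 3 were called, 1 higher and 2 lower, against 16.3% of all genes (8.23% higher, 8.05% lower). On the adjusted p alone 6 of 9 passed in each, against 27.2% of all genes for TET TKO and 43.6% for DNMT TKO. The libraries did not overlap for 6 of 9 genes in each, against 53.1% and 50.8% of all genes. Both comparisons use the same WT shEmpty libraries, and each sets 1 mutant line against 1 WT line.

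*Lefty1* averaged 38.8 ± 1.63 CPM in TET TKO (SD, n = 2) and 5.24 ± 1.36 CPM in WT (n = 3), a rise of 2.91 ± 0.741 on the log2 scale, or 7.5-fold, with an edgeR adjusted p of 0.0136. That call was lost without WT shEmpty replicate 3, with an edgeR adjusted p of 0.0537 at a log2 change of 2.73, and without TET TKO shEmpty replicate 2, with 0.0518 at 2.85, where the arm held a single library assumed to vary like the other groups. *Lefty2* averaged 224 ± 14.0 CPM in TET TKO and 31.3 ± 6.78 CPM in WT, a rise of 2.85 ± 0.623 on the log2 scale, or 7.19-fold, with an edgeR adjusted p of 0.00621. *Tdgf1* was 1.91-fold higher in TET TKO, a log2 difference of 0.94 ± 0.0875 that passed the edgeR test with an adjusted p of 3.25e-07 and missed 2-fold. *Nodal* itself averaged 105 ± 1.68 CPM in TET TKO and 102 ± 5.21 CPM in WT, with overlapping libraries and an edgeR adjusted p of 0.862. *Smad7* was lower in TET TKO by 0.35 on the log2 scale, at -0.35 ± 0.0707 with an edgeR adjusted p of 0.00115.

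On the BMP side, *Bmp4* averaged 2.47 ± 0.198 CPM in TET TKO against 9.30 ± 2.48 CPM in WT, and fell by 1.90 ± 0.378 on the log2 scale with an edgeR adjusted p of 0.00157. *Id1* averaged 2.07 ± 0.319 CPM against 7.66 ± 0.492 CPM, and fell by 1.89 ± 0.232 with an edgeR adjusted p of 7.45e-06. *Id2* and *Id3* overlapped between TET TKO and WT, with edgeR adjusted p values of 0.354 and 0.563. With the replicate block the *Id2* difference of 0.53 passed the edgeR test with an adjusted p of 0.0469, and without the replicate 1 libraries that of 0.90 passed with 3.29e-05, both under 2-fold.

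In DNMT TKO all 3 *Id* genes passed the test with lower levels than in WT, *Id1* by less than 2-fold. *Id3* averaged 4.22 ± 4.40 CPM against 22.4 ± 13.1 CPM (n = 3 each), with replicate 1 the highest of each group and no overlap. It fell by 2.47 ± 0.791 on the log2 scale with an edgeR adjusted p of 0.0265, which became 0.0874 without WT shEmpty replicate 1, 0.0961 without DNMT TKO shEmpty replicate 2 and 0.0921 without DNMT TKO shEmpty replicate 3. Without DNMT TKO shEmpty replicate 1 the log2 change was -3.68, or 12.8-fold, and without the replicate 1 libraries of both genotypes it was -3.11, or 8.61-fold, with an edgeR adjusted p of 7.07e-09. *Id2* averaged 1.45 ± 0.331 CPM against 4.45 ± 2.02 CPM, and fell by 1.61 ± 0.370 with an edgeR adjusted p of 0.00212. *Id1* averaged 4.29 ± 1.15 CPM against 7.66 ± 0.492 CPM, a log2 difference of -0.82 ± 0.188 that passed the edgeR test with an adjusted p of 0.00166 but was under 2-fold.

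*Lefty2* averaged 96.3 ± 27.6 CPM in DNMT TKO against 31.3 ± 6.78 CPM in WT, a rise of 1.63 ± 0.576 on the log2 scale with an edgeR adjusted p of 0.0416. The call was lost without any 1 of the 6 libraries, where the adjusted p was 0.0613 to 0.125 at log2 changes of 1.39 to 1.78, and with no filter on low counts, at 0.051, and was kept without all the replicate 1 libraries of WT and DNMT TKO, with an edgeR adjusted p of 0.00187. *Lefty1* overlapped between DNMT TKO and WT, with an edgeR adjusted p of 0.687. *Nodal* was lower in DNMT TKO, at 61.3 ± 6.75 CPM against 102 ± 5.21 CPM, a log2 difference of -0.74 ± 0.0972 with an edgeR adjusted p of 7.83e-06, under 2-fold. *Smad7* was lower by a log2 difference of -0.42 ± 0.0631 with an edgeR adjusted p of 3e-05. *Bmp4* overlapped, at 15.3 ± 5.58 CPM against 9.30 ± 2.48 CPM, with an edgeR adjusted p of 0.0596 that became 0.0194 with the replicate block, at 0.69, and 3.02e-05 without the replicate 1 libraries, at 0.64.

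**Figure D4:**
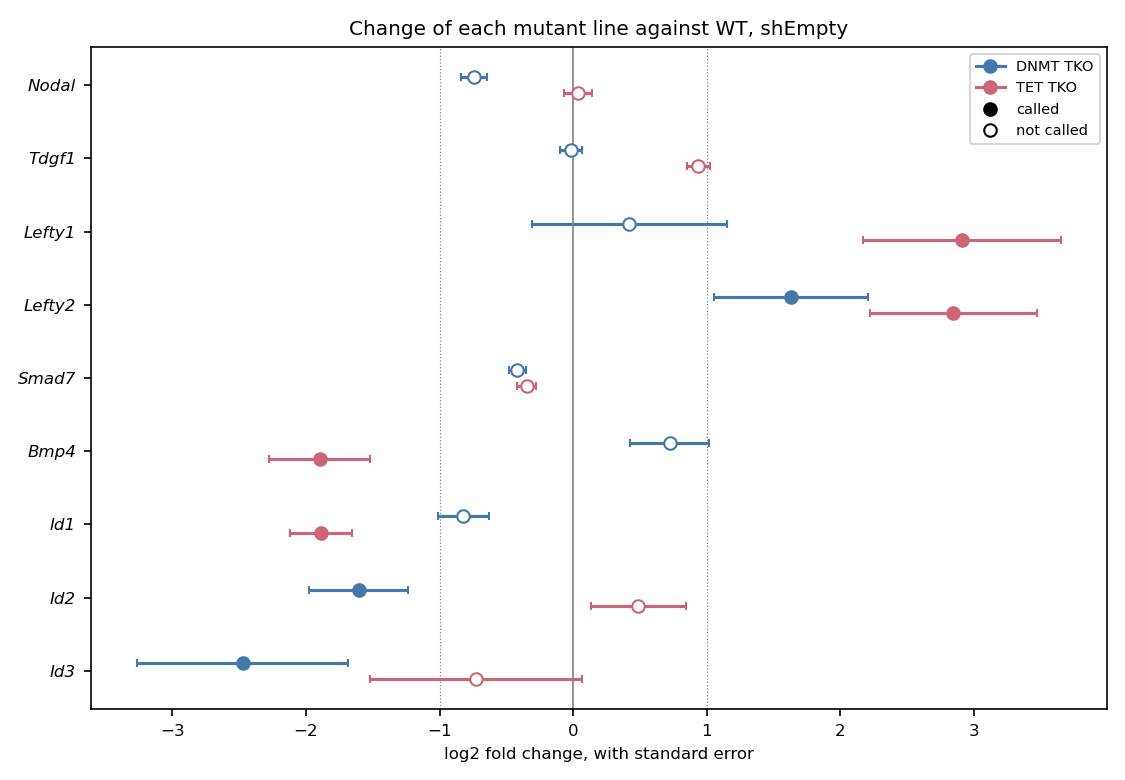
Log2 fold change of DNMT TKO (blue) and TET TKO (red) against WT in shEmpty cells for each gene, with the standard error as a bar, 2-fold as dotted lines, and filled symbols for called genes. *Lefty1* and *Lefty2* lie near 2.9 in TET TKO, *Bmp4* and *Id1* near -1.9, and *Id2* and *Id3* are the lowest in DNMT TKO.

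Among the remaining ligands, receptors, inhibitors, transducers and targets, the calls on knockdown included rises and falls. Of 58 further genes listed for both pathways, 51 were tested. In WT 6 of them rose and 4 fell (19.6% called), in DNMT TKO 4 rose and 2 fell (11.8%), and in TET TKO 1 rose and 4 fell (9.8%), beside the 17.4%, 12.5% and 12.5% of all genes. By branch, 28.6% of the 28 BMP genes tested were called in WT, 14.3% in DNMT TKO and 7.14% in TET TKO, and 8.7%, 8.7% and 13% of the 23 Nodal genes. In the BMP list 6 were higher and 2 lower in WT, 4 and 0 in DNMT TKO and 1 and 1 in TET TKO. In the Nodal list 2, 2 and 3 were lower and 0 higher, so its share lower in WT, 8.7%, is set against 6.54% of all genes. None of the receptors and convertases of the Nodal branch (7 tested with *Tdgf1*) and none of its SMAD transducers and cofactors (5 tested) was called in any genotype. The median log2 change over those 51 genes was 0.036, 0.065 and -0.087 in the 3 genotypes.

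Among Nodal targets, *Gsc*, a homeobox gene of the organizer and mesendoderm, fell in every genotype. It averaged 2.14 ± 0.330 CPM in WT shEmpty and 0.365 ± 0.0585 CPM in WT shKap1, and fell by 2.56 ± 0.345 on the log2 scale with an edgeR adjusted p of 8.38e-06. It fell by 1.16 ± 0.227 in DNMT TKO and by 1.81 ± 0.306 in TET TKO, with edgeR adjusted p values of 0.000621 and 0.000188. *T*, which encodes the mesoderm factor Brachyury, fell by 1.04 ± 0.272 in WT and by 2.29 ± 0.240 in DNMT TKO, with edgeR adjusted p values of 0.00426 and 9.52e-07. In TET TKO *T* was at 0.980 ± 0.0590 CPM in shEmpty and 0.778 ± 0.0122 CPM in shKap1, with an edgeR adjusted p of 0.599.

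Among BMP targets, *Id4*, a further Id gene, fell by 1.34 ± 0.299 in WT and by 1.19 ± 0.370 in TET TKO, with edgeR adjusted p values of 0.00183 and 0.0242. *Msx2*, a homeobox target, rose by 1.05 ± 0.310 in WT and by 1.82 ± 0.469 in TET TKO, with edgeR adjusted p values of 0.0113 and 0.0076. *Smad9*, a BMP transducer, fell by 1.11 ± 0.325 in WT with an edgeR adjusted p of 0.00943, from 1.12 ± 0.524 to 0.488 ± 0.106 CPM. It was not called in DNMT TKO, at -0.29, or in TET TKO, at 0.23, with edgeR adjusted p values of 0.265 and 0.679. In DNMT TKO neither *Id4*, at -0.79, nor *Msx2*, at 0.58, was called, with edgeR adjusted p values of 0.037 and 0.198. *Id4* and *Msx2* were named for the size of their called changes. Together with *Id1*, which was not called, they did not share 1 direction in WT, and the BMP targets were not counted apart here.

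None of the 9 genes had a KAP1 region or an H3K9me3 region within 10 kb, where 27.6% of the genes tested had a KAP1 region and 15.1% a region of KAP1-dependent H3K9me3. Within 50 kb, *Tdgf1* had 5 KAP1 regions and 1 region of KAP1-dependent H3K9me3, the nearest 24236 bases from the gene, and *Id2* had 1 KAP1 region at 22253 bases. The share of all genes with a KAP1 region within 50 kb was 57.7%, and 35.9% had a region of KAP1-dependent H3K9me3. *Id1* had 2 annotated imprinting control regions (ICRs) within 50 kb, at 28087 and 49324 bases, where 0.33% of all genes had any. Of 347 annotated LINE, SINE, LTR and DNA integrants within 10 kb of the 9 genes, 22 had enough reads to test. None of the 22 was called higher on knockdown in any genotype. Of the 123880 integrants tested across the genome, 12.1%, 15% and 14.7% were called higher in WT, DNMT TKO and TET TKO. In WT 3 of the 22 were called lower, in DNMT TKO 1 and in TET TKO 3, against 2.05%, 0.944% and 0.971% of all integrants. The TET TKO count includes the overlapping SINEs PB1D7 and ID_B1 described below. These SINEs share reads and passed the read filter only through TET TKO shEmpty.

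The integrants that fell lay near or within *Nodal* and *Tdgf1* in WT and *Lefty2* in the mutants, and whether their reads belonged to transcripts of these genes was not tested. RLTR25A, an LTR 243 bases past the end of *Lefty2* on the same strand, held 17 and 16 reads in TET TKO shEmpty and 1 and 3 reads in TET TKO shKap1, a log2 difference of -2.55 ± 0.747 with an edgeR adjusted p of 0.00556. It also fell in DNMT TKO, by 2.41 ± 0.800 with an edgeR adjusted p of 0.0193, from 5, 9 and 5 reads to 2, 0 and 1. PB1D7 and ID_B1 were SINEs on the opposite strand, 8256 and 8243 bases upstream of *Lefty2*, that overlap each other and so share reads. They held 10 and 9 reads each in TET TKO shEmpty and 0 or 1 in TET TKO shKap1, of 30 and 31 reads in all. Without the TET TKO shEmpty reads neither would have reached the filter of 16 reads, so no test result is read from their fall. RLTR20C2_MM, an LTR within the span of *Nodal*, held 2, 9 and 9 reads in WT shEmpty and 0, 0 and 3 in WT shKap1, with an edgeR adjusted p of 0.0435. The reads of these integrants were few. Leaving out 1 library changed the number called to between 1 and 3 in WT and 0 and 3 in DNMT TKO, and the cause was not tested.

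The median change of 5-hydroxymethylcytosine (5hmC) over the regions at these genes after knockdown in WT turned its sign under another scaling. The values are from replicate 1, with 1 hMeDIP library and 1 input library per hairpin, so there is no test, and the intervals below cover counting error only. Over 30 H3K4me3 regions within 10 kb of the genes the median log2 change of 5hmC over input was 0.35, beside 0.39 over all 28066 such regions. Over 11 H3K27me3 regions it was 0.29, beside 0.27 over 19316. Scaling to the reads in H3K4me3 regions lowers every value by 0.39 on the log2 scale, which takes the median over both kinds of region from 0.34 to -0.048. The region over the start of *Smad7* had 38 and 85 hMeDIP reads in shEmpty and shKap1 beside 156 and 204 input reads, a change of 1.09 (95% interval 0.47 to 1.71). The region over the start of *Tdgf1* had 58 and 120 hMeDIP reads beside 123 and 170 input reads, a change of 0.91 (0.35 to 1.47), and that over *Nodal* changed by 0.16 (-0.47 to 0.78). The H3K4me3 regions over or next to the starts of *Lefty2*, *Bmp4*, *Id1*, *Id2* and *Id3* changed by 0.59, 0.29, 0.31, 0.0053 and -0.13. Each of these had an interval that spanned 0. In replicate 2 the file names contradict the labels on which library is input and which is hMeDIP. Taken as labelled, its median over both kinds of region was -0.14. Its *Smad7* start region changed by -1.39 and its *Tdgf1* start region by -0.29, and no direction is read from these values.

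Likeness was taken as Pearson's r of log2 CPM over the 16 libraries among 14050 genes of at least 1 CPM, as a description with no test, since the libraries share genotypes and hairpins. *Nodal* was closest to *Ppp1r14d* (r = 0.97), *Htra1* (0.96) and *Il34* (0.95). *Bmp4* was closest to *Nrp2* (0.97), *Morc1* (0.95) and *Pak1ip1* (0.95). *Lefty2* was closest to *Trip13* (0.96), *Tiam2* (0.94) and *Zfp598* (0.94), and *Lefty1* to *Gm8399* (0.90), *Gm12715* (0.90) and *Rtn1* (0.88).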

How the data were processed

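RNA-seq, ChIP-seq and hMeDIP-seq files were used. Per the labels and methods, the authors aligned RNA-seq reads to mm9 with HISAT2 and deposited raw read counts per gene (featureCounts, reverse strand, mapping quality filter) and per transposable element integrant (bedtools). Peak files hold the authors' MACS and SICER score per peak, called for each replicate. hMeDIP files hold deposited read counts per region. Reads that mapped to several places were discarded before counting, and integrants were counted by strand. The count file header names another featureCounts version than the submitters' processing notes.

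Counts were tested with edgeR 4.0.16 (quasi-likelihood, robust, TMM scaling) in 1 fit over 6 groups and 16 libraries. Genes with at least 16 reads in all were kept (20321), p-values were adjusted by Benjamini-Hochberg over all genes tested, and genes were called at an adjusted p under 0.05 together with 2-fold. Filter and thresholds follow the study, which used voom. Integrants were fitted on the whole table, scaled by the gene library sizes. CPM were computed from the counts with TMM factors, and RPKM by dividing CPM by exon length. The SE given with an edgeR log2 change was not reported by the fit. It was derived as the absolute log2 change divided by the square root of the F statistic of the quasi-likelihood test. Per the methods replicates were independent experiments, and no libraries of a group were identical. DESeq2 1.42.0 and limma-voom 3.58.1 were alternatives, as were other scalings, no filter, no fold threshold, only the groups compared, a replicate block and leaving out each library; leaving out all replicate 1 libraries of WT and DNMT TKO was added after seeing the data. A self-test on simulated counts over 20321 genes placed changes in 200 genes of at least 1 CPM. It recovered 98.1% of changes of 2 on the log2 scale and 91.7% of changes of 1.3 for the WT knockdown. For the TET TKO minus WT difference it recovered 92.8% and 75.7%. False calls numbered 7 and 4, and no rate was computed for the genes described here by themselves.

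Replicate numbers were checked for pairing by correlating the deviations of same-numbered libraries from their group means. Between the WT hairpins r was 0.274, 0.118 and 0.121 over all genes tested. Between DNMT TKO and WT in shEmpty it was 0.317, 0.135 and 0.148. Between the DNMT TKO hairpins it was 0.330, 0.174 and 0.0781, which falls short in replicate 3, and 0.557, 0.387 and 0.192 over genes of at least 1 CPM, a restriction chosen after the first values were seen. TET TKO numbers showed no pairing (-0.0037). For the 9 genes and *Inhbb*, blocked values are therefore given beside the results whose call or side of the adjusted p threshold they change.

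Promoter sequences are from RefSeq (GRCm38.p6); 5 of the 9 genes were matched. The second hMeDIP replicate, whose file names do not match its labels, served as an alternative only. The hMeDIP counts were scaled by their reads over all region sets, with 1 read added. The members and gene lists were chosen with earlier results of these data known. Beside the members, the rule named up to 2 called genes of at least 1 CPM per pathway list with the largest knockdown change, the 3 genes most like *Nodal*, *Lefty1*, *Lefty2* and *Bmp4*, and up to 4 called integrants.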

Additional observations from a re-analysis of the deposited data

Results flagged for a closer look

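The knockdown effect differed between genotypes by the test of the difference itself (edgeR's quasi-likelihood interaction term with Benjamini-Hochberg adjustment) for 3 of the 9 genes, each by under 2-fold. For DNMT TKO 3 passed, against 18.4% of all genes, and for TET TKO 1, against 9.69%. On the log2 scale the effect in DNMT TKO minus that in WT was 0.98 for *Nodal* (SE 0.139, edgeR adjusted p 8.69e-05), 0.80 for *Smad7* (SE 0.0923, edgeR adjusted p 9.35e-06) and 0.35 for *Tdgf1* (SE 0.113, edgeR adjusted p 0.0394). The effect in TET TKO minus that in WT was 0.51 for *Smad7* (SE 0.104, edgeR adjusted p 0.00402). In each case the decrease in WT was the larger. The *Nodal* difference reached 2-fold with the replicate block, at 1.00, and without the replicate 1 libraries of WT and DNMT TKO, at 1.18. Without the replicate 1 libraries of WT and DNMT TKO the *Tdgf1* difference was 0.22 with an edgeR adjusted p of 0.0648, and without any 1 of 9 of the 12 libraries its adjusted p was also above 0.05, at most 0.14. DESeq2 gave the *Tdgf1* difference an adjusted p of 0.0565. *Trim28* was left at 22.9% in DNMT TKO, 9.42% in WT and 9.03% in TET TKO, and its part in these differences was not tested.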

How the results depend on the processing

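The counts of the 9 genes called were recomputed under each alternative. For the DNMT TKO knockdown 2 were called, in place of 1, with DESeq2 size factors, the DESeq2 Wald test, limma-voom, no fold threshold, the replicate block, and without the replicate 1 libraries of WT and DNMT TKO. For the TET TKO knockdown, in place of 2, library totals gave 1, limma-voom, no fold threshold, the replicate block and leaving out those replicate 1 libraries gave 4 each, and fitting only the groups compared gave 5. For the DNMT TKO minus WT effect, in place of 0, limma-voom, the block and leaving out replicate 1 gave 1 each and no fold threshold 3. For the TET TKO minus WT effect, in place of 0, DESeq2, no fold threshold, the block and leaving out replicate 1 gave 1 each. For DNMT TKO against WT no fold threshold gave 6 in place of 3 and no filter gave 2, without *Lefty2*. Calls of single genes that the block changed are given beside those genes. Leaving out 1 library at a time gave 1 to 2 called for DNMT TKO against WT, 1 to 2 for the DNMT TKO knockdown, 0 to 1 for the TET TKO knockdown, where 1 arm then held a single library assumed to vary like the other groups, and 0 to 1 for the DNMT TKO minus WT effect.

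Changes of sign concerned log2 differences that did not pass the test. For DNMT TKO against WT *Tdgf1*, at -0.016, became 0.021 with DESeq2 size factors, 0.021 with DESeq2, 0.0018 without the filter, 0.013 with only the groups compared and 0.042 without the replicate 1 libraries. Without those libraries *Id3* in the WT knockdown became 0.12, *Lefty2* in TET TKO minus WT 0.36, *Lefty1* in DNMT TKO against WT -0.11 and *Nodal* in TET TKO against WT -0.0012. Leaving out 1 library at a time, the DNMT TKO knockdown ranged from -1.24 to 0.57 for *Lefty1*, -0.30 to 0.12 for *Id1*, -0.035 to 0.25 for *Id2* and -0.75 to 1.67 for *Id3*. The WT knockdown ranged from -0.068 to 0.93 for *Lefty1* and -0.47 to 0.36 for *Id3*. The DNMT TKO minus WT effect ranged from -0.64 to 1.12 for *Lefty2* and -0.55 to 1.86 for *Id3*, and the TET TKO minus WT effect from -0.60 to 0.51 for *Lefty2*, -0.011 to 0.083 for *Tdgf1*, -0.13 to 0.18 for *Id1* and -0.93 to 0.039 for *Id2*. DNMT TKO against WT ranged from -0.30 to 0.71 for *Lefty1* and -0.051 to 0.032 for *Tdgf1*, and TET TKO against WT from -0.0064 to 0.057 for *Nodal*.

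Within 50 kb 108 integrants were tested, and 9 were called in WT (3 higher, 6 lower, 8.33%), 4 in DNMT TKO (1 and 3, 3.7%) and 14 in TET TKO (2 and 12, 13%), against 14.2%, 16% and 15.7% of all integrants, and without a fold threshold 6 within 10 kb in WT. Leaving out 1 library gave 1 to 3, 0 to 3 and 0 to 2. Genes with both histone marks numbered 4 to 5 in single replicates and 0 with peaks above the median score, and 2 genes had a KAP1 or H3K9me3 region within 50 kb. The median 5hmC change became -0.048 when scaled to H3K4me3 regions and -0.14 in replicate 2 as labelled, where file names and labels conflict. Causes of these changes were not tested. Without the replicate 1 libraries of WT and DNMT TKO the SE of the WT knockdown went from 0.353 to 0.165 for *Bmp4* and from 0.671 to 0.403 for *Lefty2*.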

Other observations

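*Inhbb*, which encodes the inhibin and activin beta-B subunit (ENSMUSG00000037035, chromosome 1, 121312042 to 121318825 in mm9), was the only further pathway gene whose knockdown effect differed from WT in both mutants by edgeR's quasi-likelihood test and at least 2-fold. It was chosen after its values were seen, from 51 further genes of which 4 were called for the DNMT TKO difference, against 7.14% of all genes, and 1 for the TET TKO difference, against 4.21%. WT shEmpty held 14.2, 20.4 and 25.3 CPM and WT shKap1 7.23, 11 and 12.1 CPM, so the level was lower after knockdown without overlap. DNMT TKO went the other way, from 9.50, 9.53 and 8.60 CPM to 15, 11.6 and 12.7 CPM, and so did TET TKO, from 10.4 and 10.4 CPM to 17.9 and 17.1 CPM. The difference of the effects on the log2 scale was 1.5 ± 0.267 for DNMT TKO (edgeR adjusted p 0.000811) and 1.74 ± 0.296 for TET TKO (edgeR adjusted p 0.00129). Both were also called with the replicate block, at 1.5 and 1.74, and without the replicate 1 libraries of WT and DNMT TKO, at 1.37 and 1.74. The knockdown changes themselves, -0.99 in WT, 0.51 in DNMT TKO and 0.75 in TET TKO, passed the test at under 2-fold, so none was called. With the replicate block the DNMT TKO change no longer passed, at 0.52 with an edgeR adjusted p of 0.0513. In shEmpty cells *Inhbb* was lower in both mutants, with a log2 difference of -1.12 ± 0.187 in DNMT TKO (edgeR adjusted p 0.000115) and of -0.95 ± 0.210 in TET TKO (edgeR adjusted p 0.00269, under 2-fold). Without the replicate 1 libraries of WT and DNMT TKO that TET TKO difference was called, at -1.13 ± 0.097 with an edgeR adjusted p of 9.87e-12. The WT shEmpty libraries enter both differences and both of these comparisons, so the 4 are not independent of each other.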
